A study of Mus musculus with 12 samples.

Results

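Genes through which marrow stroma feeds and holds blood-forming cells were examined, namely Cxcl12, Kitl, Il7, Angpt1 and Igf1, whose products are secreted or shed, and Vcam1, whose product sits on the cell surface. The members were all probe sets (groups of array probes that read 1 transcript region) whose platform annotation gave exactly 1 of these symbols, whatever their values. All 6 genes were found, with 11 probe sets among the 3109 tested and among 1974 genes with a single symbol. Kitl had 3 probe sets, Cxcl12, Angpt1 and Vcam1 had 2 each, and Il7 and Igf1 had 1 each.

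The arrays measured RNA from primary bone marrow stroma of Crebbp+/- mice (4 arrays), Ep300+/- mice (4 arrays) and wild-type mice (4 arrays). Crebbp and Ep300 encode related coactivators that acetylate histones, and the heterozygous mice carry 1 working copy of the named gene. All mice were C57BL/6 and 3 to 4 months old. In every genotype the marrow was plated for 2 weeks in M5300 medium to form an adherent layer, which then received 1500 cGy of radiation and new medium. The labels call the 4 arrays of a genotype biological replicates without naming animals or cultures. They do not describe the alleles, and the genotype is that of the whole mouse and so of every cell type in the layer. The comparisons ask how the RNA level of each niche gene in Crebbp+/- or in Ep300+/- stroma compares with wild type, and how the heterozygotes compare with each other.

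The marrow niche keeps blood stem cells and lymphoid progenitors in place and alive through short-range signals. Cxcl12 is the chemokine that retains Cxcr4-bearing cells in marrow, and Kitl, or stem cell factor, is the ligand of the receptor Kit and is made in a membrane-bound and a soluble form. Both are known to be made at high levels by perivascular reticular cells that carry the leptin receptor. Il7 is the cytokine that B cell progenitors depend on, Angpt1 is the ligand of the receptor Tek, and Igf1 is an insulin-like growth factor whose activity is set by binding proteins. Vcam1 binds the integrin VLA-4 on blood cells and so anchors them to stroma.

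Promoter sequences are shown for Cxcl12, Kitl and Igf1, the members for which such a sequence was found. They are RefSeq sequences of build GRCm38.p6, found for 3 of the 6 members, each 300 bases long and running from 250 bases before the transcript start to 50 after it, all on the + strand. The positions are chr6:117168285-117168584 for Cxcl12, chr10:100015571-100015870 for Kitl and chr10:87860861-87861160 for Igf1. Capitals mark matches on either strand to the motifs searched, which were the GC box GGGCGG, the TATA box TATAAA, the CCAAT box CCAAT, the full cAMP response element TGACGTCA and its core TGACG.
Cxcl12: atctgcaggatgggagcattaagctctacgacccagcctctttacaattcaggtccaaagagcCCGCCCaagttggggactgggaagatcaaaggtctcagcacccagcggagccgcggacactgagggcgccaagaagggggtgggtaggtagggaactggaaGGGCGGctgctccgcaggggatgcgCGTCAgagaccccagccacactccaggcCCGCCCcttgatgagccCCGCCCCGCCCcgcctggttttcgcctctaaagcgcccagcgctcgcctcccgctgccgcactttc
Kitl: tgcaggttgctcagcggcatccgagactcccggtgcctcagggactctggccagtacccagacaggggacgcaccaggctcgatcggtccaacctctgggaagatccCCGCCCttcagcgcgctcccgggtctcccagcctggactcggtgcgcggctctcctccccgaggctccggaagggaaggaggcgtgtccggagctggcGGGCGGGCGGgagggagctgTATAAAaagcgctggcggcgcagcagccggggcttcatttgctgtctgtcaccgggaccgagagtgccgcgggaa
Igf1: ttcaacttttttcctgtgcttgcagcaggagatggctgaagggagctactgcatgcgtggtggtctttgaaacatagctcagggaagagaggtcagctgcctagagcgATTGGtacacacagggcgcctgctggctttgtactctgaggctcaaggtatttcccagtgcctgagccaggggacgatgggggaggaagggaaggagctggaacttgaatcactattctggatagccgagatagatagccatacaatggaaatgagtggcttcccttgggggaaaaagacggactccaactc

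The Cxcl12 promoter was 64.7% G and C and held 5 GC boxes, of which the 2 nearest the start overlap, and a cAMP response element core 61 bases before the start. The Kitl promoter was 68.7% G and C, with 3 GC boxes, of which the 2 nearest the start overlap, and a TATA box 25 bases before the start. Igf1 was at 52.3%, close to the median of 52.7% over 32851 mouse promoters of this length, and its single match was a CCAAT box 142 bases before the start. Of those promoters, 35.7% held a GC box, 37.4% a CCAAT box, 20.8% the cAMP response element core, 13.6% a TATA box and 1.79% the full cAMP response element. A match describes these letters and is no evidence of a bound factor.

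Crebbp, the targeted gene, had log2 levels of 7.67 to 7.88 on the Crebbp+/- arrays, 8.48 to 8.73 on the Ep300+/- arrays and 8.45 to 8.59 on the wild-type arrays, so the Crebbp+/- arrays went with their label. Ep300 was not among the probe sets analysed here, and the Ep300+/- label has no such check. The Y-linked gene Eif2s3y had log2 levels of 2.73 on Crebbp+/- array 1 and 2.69 on Crebbp+/- array 3, while all remaining arrays read 8.41 to 10.84. Sex is not among the sample labels used here. A low level of this gene occurred in Crebbp+/- alone, so in both Crebbp+/- comparisons it goes partly with genotype. Fits with Eif2s3y as a covariate cannot fully separate them. Array medians lay between 8.15 and 8.43 in Crebbp+/-, 7.98 and 8.31 in Ep300+/- and 8.03 and 8.27 in wild type, and in each genotype the array numbered 4 had the lowest. Over all probe sets the median difference was 0.24 for Crebbp+/- minus wild type, 0.05 for Ep300+/- minus wild type and 0.03 for Crebbp+/- minus Ep300+/-, on the log2 scale. Member differences are read beside these shifts.

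None of the 11 member probe sets passed the test in any comparison of genotypes. Differences were tested with limma over all 3109 probe sets at an adjusted p under 0.05. Calls numbered 0 of 11 for Crebbp+/- minus wild type, against 6.18% of all probe sets, 0 of 11 for Ep300+/- minus wild type, against 0%, and 0 of 11 for Crebbp+/- minus Ep300+/-, against 6.4%. At an unadjusted p under 0.05 the members numbered 2, 0 and 1 in the same order of comparisons, where all probe sets reached 26.7%, 4.05% and 25.2%. When arrays of the same replicate number were treated as blocks, 2 of 11 members (18.2%) were called for Crebbp+/- minus wild type, both higher, where 26.1% of all probe sets were called and 17.5% were called higher. For Crebbp+/- minus Ep300+/- 3 of 11 (27.3%) were called, all higher, where 24.4% of all probe sets were called and 19.1% were called higher. The shares of members called in this way were near those of the table as a whole. The 2 called against wild type, and 2 of the 3 called against Ep300+/-, are the dim Kitl and Angpt1 probe sets, which met the level bound of the deposited table only through Crebbp+/- arrays, so that a higher level there is in part a condition of their being in it. Of the 9 other member probe sets, with the block 0 were called for Crebbp+/- minus wild type and 1 for Crebbp+/- minus Ep300+/-. The groups overlapped for every member in every comparison, whereas they did not overlap for 18.8% of all probe sets in Crebbp+/- and wild type, 4.15% in Ep300+/- and wild type and 13.5% in Crebbp+/- and Ep300+/-.

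**Figure D1:**
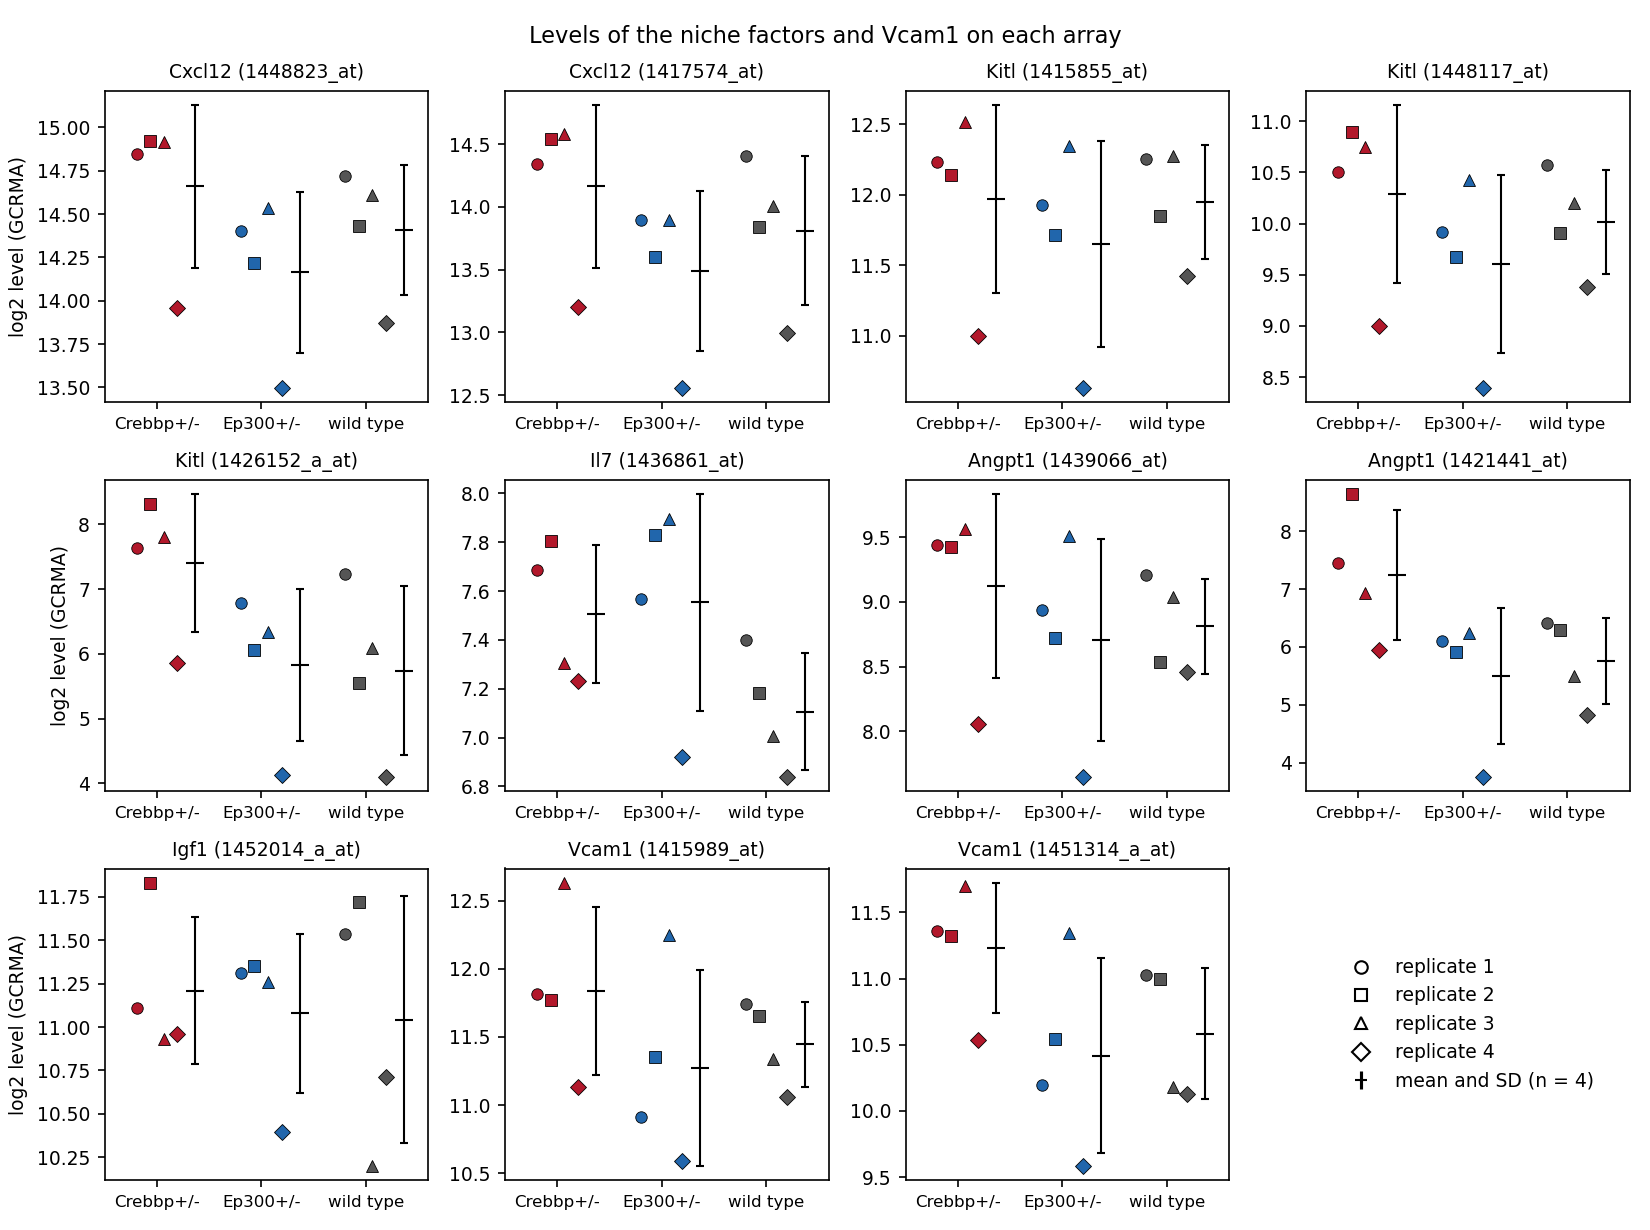
Log2 level of each of the 11 member probe sets (vertical axes) on every array, by genotype, with 1 point for each of the 4 arrays of a genotype and a bar for the mean and SD beside them. The ranges of the genotypes overlap in every panel, and array 4 is the lowest of its genotype in 31 of the 33 sets of points.

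Neither Cxcl12 probe set passed in any comparison. Its leading probe set, 1448823_at (the one of highest mean), had log2 levels of 14.85, 14.92, 14.92 and 13.96 on the Crebbp+/- arrays, 14.40, 14.22, 14.54 and 13.50 on the Ep300+/- arrays and 14.72, 14.43, 14.61 and 13.87 on the wild-type arrays. Crebbp+/- arrays 1 to 3 were above every array of the other genotypes, and the array numbered 4 was the lowest in each genotype. The means were 14.66 ± 0.47 in Crebbp+/-, 14.16 ± 0.46 in Ep300+/- and 14.41 ± 0.38 in wild type (SD, n = 4 each). The log2 difference from wild type was 0.25 (SE 0.32, adjusted p = 0.632) in Crebbp+/- and -0.25 (SE 0.32, adjusted p = 0.965) in Ep300+/-. Between the heterozygotes it was 0.50 (SE 0.32, 95% interval -0.20 to 1.20, adjusted p = 0.385), or 1.41-fold, and Crebbp+/- was the higher in 4 of 4 same-numbered pairs.

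The second Cxcl12 probe set, 1417574_at, gave the same order of genotype means, 14.16 ± 0.65 in Crebbp+/-, 13.49 ± 0.64 in Ep300+/- and 13.81 ± 0.59 in wild type. Crebbp+/- minus Ep300+/- was 0.68 (SE 0.42, adjusted p = 0.357), and this difference was called with the replicate block (adjusted p = 0.0281) but not with the block and quantile normalization together (0.50, adjusted p = 0.0977). After quantile normalization the Crebbp+/- minus wild type differences of both were just below 0, at -0.07 each, so the direction of Cxcl12 in that comparison flips with the scaling.

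For Kitl, Crebbp+/- minus wild type was small by the 2 bright probe sets and larger by the dim one, and none passed. The leading probe set 1415855_at had log2 levels of 12.23, 12.14, 12.52 and 10.999 on the Crebbp+/- arrays, 11.93, 11.71, 12.35 and 10.63 on the Ep300+/- arrays and 12.25, 11.85, 12.27 and 11.42 on the wild-type arrays. The ranges of the 3 genotypes overlapped almost wholly, and the array numbered 4 was the lowest of each. Crebbp+/- minus wild type was 0.02 (SE 0.41, 95% interval -0.87 to 0.92, adjusted p = 0.974), Ep300+/- minus wild type was -0.30 (adjusted p = 0.965) and Crebbp+/- minus Ep300+/- was 0.32 (adjusted p = 0.728). The first of these turned to -0.32 after quantile normalization and to -0.18 after median centring. The second probe set, 1448117_at, averaged 10.29 ± 0.87 in Crebbp+/-, 9.61 ± 0.87 in Ep300+/- and 10.01 ± 0.51 in wild type, with no difference past the threshold.

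The third Kitl probe set, 1426152_a_at, was dim, with 5 of the 12 arrays at or above a log2 level of 6.64, a bound that every deposited probe set reached on at least 3 arrays. Those 5 were 3 Crebbp+/- arrays, 1 Ep300+/- array and 1 wild-type array, so it was in the table only through Crebbp+/-, and its higher level there is in part a condition of its being measured. Its log2 levels were 7.63, 8.31, 7.81 and 5.86 on the Crebbp+/- arrays, 6.78, 6.07, 6.34 and 4.13 on the Ep300+/- arrays and 7.24, 5.54, 6.09 and 4.10 on the wild-type arrays. Crebbp+/- arrays 1 to 3 were above all others, and Crebbp+/- array 4 lay within the range of the other genotypes. Crebbp+/- minus wild type was 1.66 (SE 0.73, 95% interval 0.08 to 3.24, adjusted p = 0.169), or 3.16-fold. Crebbp+/- minus Ep300+/- was 1.57 (SE 0.73, adjusted p = 0.201) and Ep300+/- minus wild type 0.09 (SE 0.73, adjusted p = 0.997). With the replicate block both Crebbp+/- differences were called, at an adjusted p of 0.0101 against wild type and 0.0099 against Ep300+/-, values that take no account of that selection. Without Crebbp+/- array 4 the difference from wild type was 2.18 (adjusted p = 0.0681), and without Crebbp+/- array 2 it was 1.36 (adjusted p = 0.363).

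Angpt1 had a bright and a dim probe set, and neither passed. The leading probe set 1439066_at had log2 levels of 9.44, 9.43, 9.57 and 8.06 on the Crebbp+/- arrays, 8.94, 8.72, 9.51 and 7.65 on the Ep300+/- arrays and 9.21, 8.53, 9.03 and 8.46 on the wild-type arrays. The fourth array was the lowest in each genotype, and the other arrays overlapped between genotypes. Crebbp+/- minus wild type was 0.31 (SE 0.43, adjusted p = 0.653), Ep300+/- minus wild type -0.11 (SE 0.43, adjusted p = 0.984) and Crebbp+/- minus Ep300+/- 0.42 (SE 0.43, adjusted p = 0.634).

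The dim Angpt1 probe set, 1421441_at, reached the same bound of 6.64 on 3 of the 12 arrays, all of them Crebbp+/-, so the same limit holds for it. Its log2 levels were 7.45, 8.65, 6.93 and 5.95 on the Crebbp+/- arrays, 6.10, 5.91, 6.24 and 3.75 on the Ep300+/- arrays and 6.42, 6.28, 5.49 and 4.82 on the wild-type arrays. Crebbp+/- arrays 1 to 3 were the 3 highest of all. Crebbp+/- minus wild type was 1.49 (SE 0.64, adjusted p = 0.163), or 2.80-fold, and Crebbp+/- minus Ep300+/- was 1.74 (SE 0.64, adjusted p = 0.116), or 3.34-fold. The replicate block brought both past the threshold (adjusted p = 0.0162 against wild type and 0.00888 against Ep300+/-), again without regard to the selection, and leaving out Crebbp+/- array 4 brought the second past it without the block (2.17, adjusted p = 0.0497). Leaving out Crebbp+/- array 2 lowered the difference from wild type to 1.02 (adjusted p = 0.392).

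Which transcripts the dim Kitl and Angpt1 probe sets read was not tested.

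Igf1 had 1 probe set, 1452014_a_at, with log2 levels of 11.11, 11.83, 10.93 and 10.96 on the Crebbp+/- arrays, 11.31, 11.35, 11.26 and 10.40 on the Ep300+/- arrays and 11.54, 11.72, 10.20 and 10.71 on the wild-type arrays. Its array 4 was not the lowest in Crebbp+/- or wild type, where array 3 was. The genotype means were 11.21 ± 0.42 in Crebbp+/-, 11.08 ± 0.46 in Ep300+/- and 11.04 ± 0.71 in wild type. The differences were 0.17 for Crebbp+/- minus wild type, 0.04 for Ep300+/- minus wild type and 0.13 for Crebbp+/- minus Ep300+/- (SE 0.38 each, adjusted p from 0.781 to 0.998). Both differences from wild type turned negative under quantile normalization, at -0.11 in Crebbp+/- and -0.16 in Ep300+/-.

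Il7 was the one member whose mean was highest in Ep300+/- stroma. Its probe set 1436861_at had log2 levels of 7.69, 7.81, 7.30 and 7.23 on the Crebbp+/- arrays, 7.57, 7.83, 7.89 and 6.92 on the Ep300+/- arrays and 7.40, 7.18, 7.005 and 6.84 on the wild-type arrays. Crebbp+/- was above wild type in 4 of 4 same-numbered pairs, and all groups overlapped. Crebbp+/- minus wild type was 0.40 (SE 0.28, 95% interval -0.20 to 0.998, adjusted p = 0.364) and Ep300+/- minus wild type 0.45 (SE 0.28, 95% interval -0.15 to 1.05, adjusted p = 0.965). These comparisons share the wild-type arrays. Crebbp+/- minus Ep300+/- was -0.05 (SE 0.28, 95% interval -0.64 to 0.55, adjusted p = 0.955).

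Vcam1, the adhesion molecule, passed in no comparison by either probe set. The leading probe set 1415989_at had log2 levels of 11.81, 11.77, 12.63 and 11.13 on the Crebbp+/- arrays, 10.91, 11.35, 12.25 and 10.59 on the Ep300+/- arrays and 11.74, 11.65, 11.34 and 11.06 on the wild-type arrays. The array numbered 3 was the highest in Crebbp+/- and in Ep300+/-, and not in wild type. Crebbp+/- minus wild type was 0.39 (SE 0.39, adjusted p = 0.541), Ep300+/- minus wild type -0.17 (SE 0.39, adjusted p = 0.975) and Crebbp+/- minus Ep300+/- 0.56 (SE 0.39, adjusted p = 0.431). The first of these was 0.12 without Crebbp+/- array 3, 0.0807 after quantile normalization and 0.0094 with the level of Eif2s3y as a covariate. The second probe set, 1451314_a_at, averaged 11.23 ± 0.49 in Crebbp+/-, 10.42 ± 0.73 in Ep300+/- and 10.58 ± 0.49 in wild type, with 0.65 (SE 0.40, adjusted p = 0.307) for Crebbp+/- minus wild type and 0.81 (SE 0.40, adjusted p = 0.227) for Crebbp+/- minus Ep300+/-. The last was called with the block and quantile normalization together (0.73, adjusted p = 0.0453), a setting chosen after the data had been seen.

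**Figure D2:**
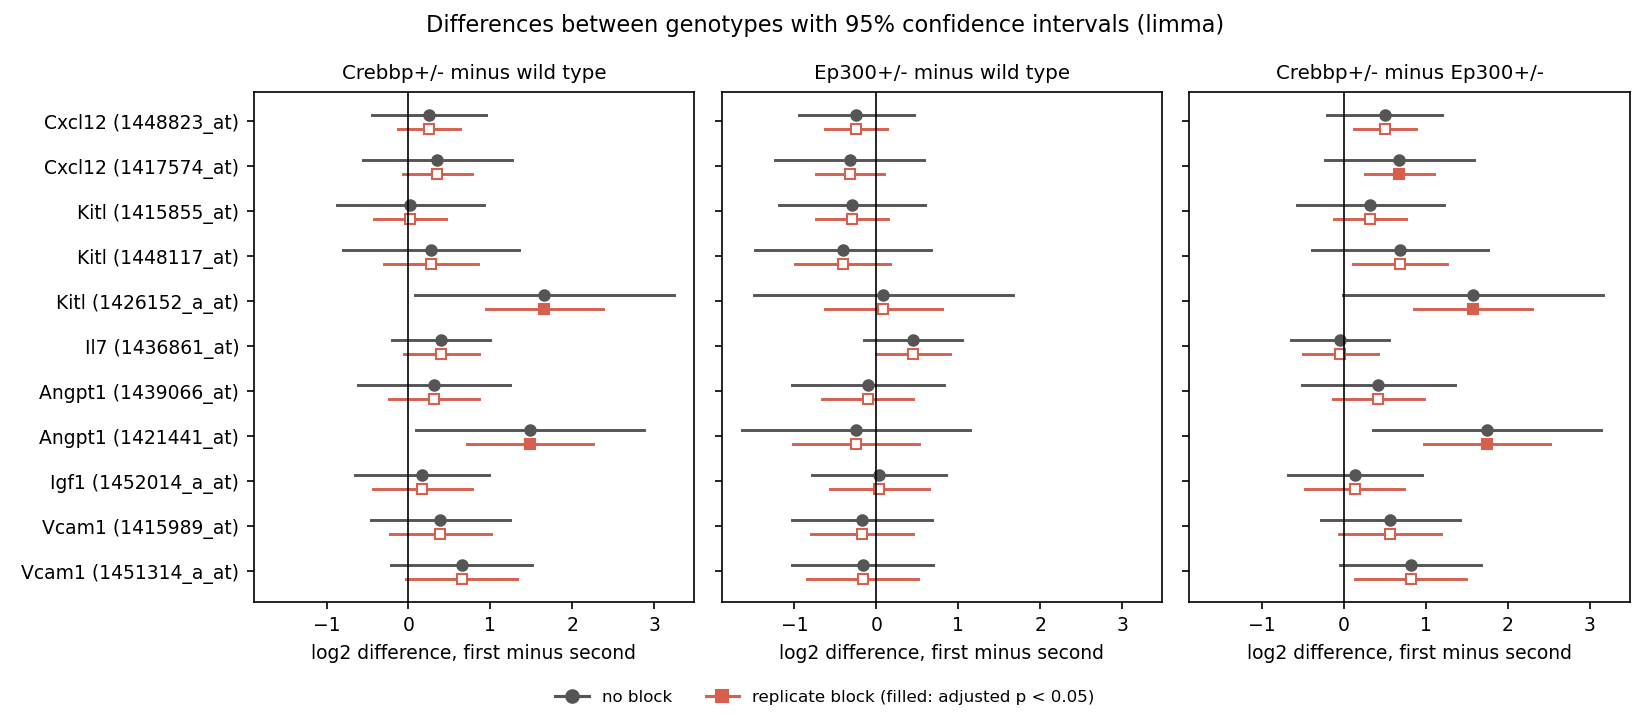
Log2 difference between genotypes (horizontal axes, first genotype minus second) for each member probe set, with 95% confidence intervals from limma, without the replicate block (circles) and with it (squares, filled where the adjusted p is under 0.05). Filled squares mark 2 probe sets for Crebbp+/- minus wild type, 0 for Ep300+/- minus wild type and 3 for Crebbp+/- minus Ep300+/-.

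Across the members, Crebbp+/- minus wild type was positive for 11 of 11 probe sets with a median of 0.35, beside 62.4% positive and a median of 0.24 over all probe sets. After quantile normalization 7 of 11 were positive, with a median of 0.0508 beside 51.4% positive and 0.0225 over all, and after median centring 9 of 11, with a median of 0.15 beside 52.8% and 0.0441. Ep300+/- minus wild type was positive for 3 of 11, with a median of -0.17 beside 0.05 over all. Crebbp+/- minus Ep300+/- was positive for 10 of 11, with a median of 0.56 beside 0.03 over all and 51.4% positive, and after quantile normalization also for 10 of 11, with a median of 0.48 beside -0.0855 over all. Crebbp+/- was higher than its same-numbered Ep300+/- array in 4 of 4 pairs for 9 of 11 probe sets (81.8%), against 27% of all probe sets. Against wild type it was higher in 4 of 4 pairs for 6 of 11 (54.5%), against 31.6% of all. Without the dim Kitl and Angpt1 probe sets these were 7 of 9 and 4 of 9, and the medians 0.50 for Crebbp+/- minus Ep300+/- and 0.31 for Crebbp+/- minus wild type. Probe sets of a gene are not independent, and the 3 comparisons share arrays. Levels of Cxcl12, Kitl, Angpt1 and Vcam1 also moved together over the arrays (Pearson r from 0.794 to 0.962). The counts of probe sets thus hold fewer independent signs than their number. The order of genotype means was Crebbp+/-, wild type, Ep300+/- from high to low for 8 probe sets, Crebbp+/-, Ep300+/-, wild type for Kitl 1426152_a_at and Igf1, and Ep300+/-, Crebbp+/-, wild type for Il7, and neighbours in these orders did not differ past the threshold.

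Replicate number took a larger share of the sum of squares than genotype did for every member probe set. The number accounted for between 39.9% (Vcam1 1451314_a_at) and 86.2% (Kitl 1415855_at) of a probe set's sum of squares over the 12 arrays, with a median of 64.9%. Genotype accounted for between 2.22% (Igf1) and 42.5% (Angpt1 1421441_at), with a median of 20.5%. Over all probe sets the medians were 43.4% for the number and 26.7% for genotype. There are more replicate numbers than genotypes, which by itself gives the number a larger share, and the shares were not corrected for this. For Angpt1 1421441_at they were close, at 47% for the number and 42.5% for genotype. Array 4 was the lowest of its genotype in all 3 genotypes for 10 of 11 member probe sets (90.9%), against 11.9% of all probe sets, and Igf1 was the exception. After quantile normalization, which makes the arrays' distributions equal, the counts were 6 of 11 (54.5%) against 5.5%. What the arrays of a number share is not given in the labels.

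**Figure D3:**
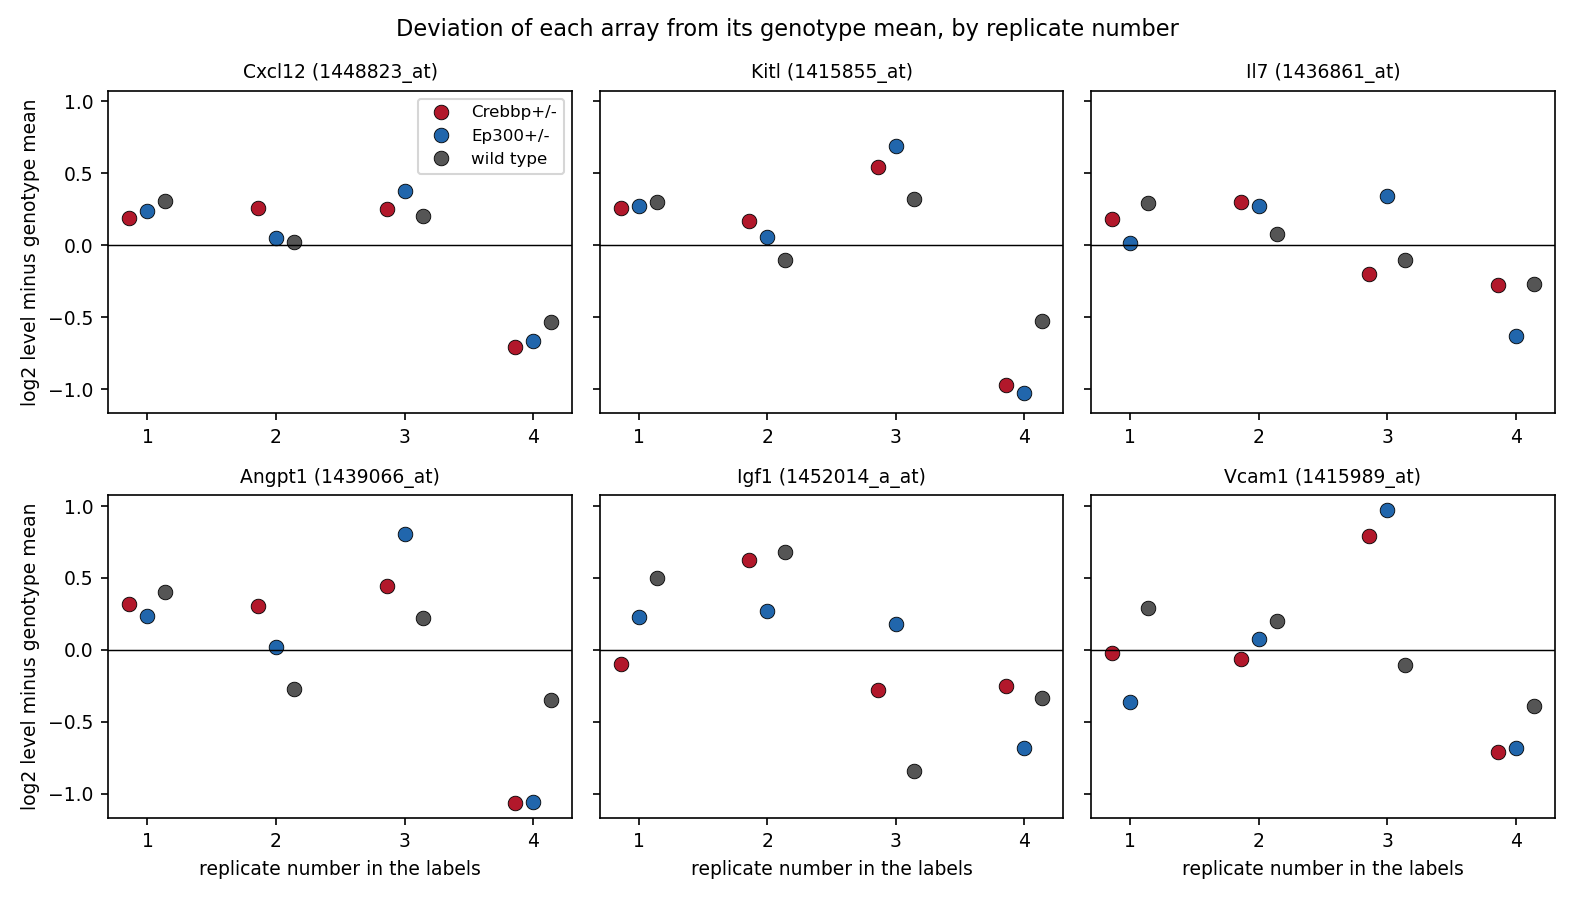
Deviation of each array from its genotype's mean (vertical axes, log2) against the replicate number in the labels (horizontal axes) for the leading probe set of each member, with 1 point per array coloured by genotype. Number 4 lies below 0 in all 3 genotypes for all 6 genes.

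Levels of Cxcl12, Kitl and Angpt1 followed each other closely over the 12 arrays, and Vcam1 followed them less closely. Over the 21 relations computed, Kitl and Angpt1 had r = 0.962 and rho = 0.93 (permutation test with 100000 resamples, adjusted p = 0.0001 for r and 0.00037 for rho). Cxcl12 had r = 0.937 and rho = 0.811 with Kitl (permutation test, adjusted p = 0.00013 and 0.0045) and r = 0.934 and rho = 0.874 with Angpt1 (0.00017 and 0.0013). Vcam1 had r of 0.794 with Cxcl12, 0.803 with Kitl and 0.819 with Angpt1 (rho from 0.783 to 0.881, permutation test, adjusted p from 0.0028 to 0.0036 for r and from 0.0012 to 0.0077 for rho). Igf1 had r from 0.347 to 0.464 with these 4 genes (rho from 0.07 to 0.371), none past the threshold (permutation test, adjusted p of 0.15 or more), and Il7 had r = 0.661 with Igf1 (adjusted p = 0.032, rho = 0.608 with adjusted p = 0.06) and r = 0.625 with Angpt1 (adjusted p = 0.046, rho = 0.615 with adjusted p = 0.06).

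Those relations rest in part on the arrays numbered 4. Over the other 9 arrays r was 0.859 for Kitl with Angpt1, 0.777 for Cxcl12 with Kitl and 0.799 for Cxcl12 with Angpt1, and 0.604 to 0.726 for Vcam1 with those 3 genes. Kitl and Igf1, at 0.347 over 12 arrays, had r = -0.428 over the 9. Il7 had r = 0.489 with Igf1 and 0.313 with Angpt1 over the 9. Leaving out the 2 arrays farthest from the median of the first gene gave 0.896 for Kitl with Angpt1, 0.878 for Cxcl12 with Kitl and 0.893 for Cxcl12 with Angpt1. The arrays share genotypes and replicate numbers and so are not fully independent points. Probe sets of the same gene had r from 0.757 (Kitl 1415855_at with 1426152_a_at) to 0.992 (the Cxcl12 pair).

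**Figure D4:**
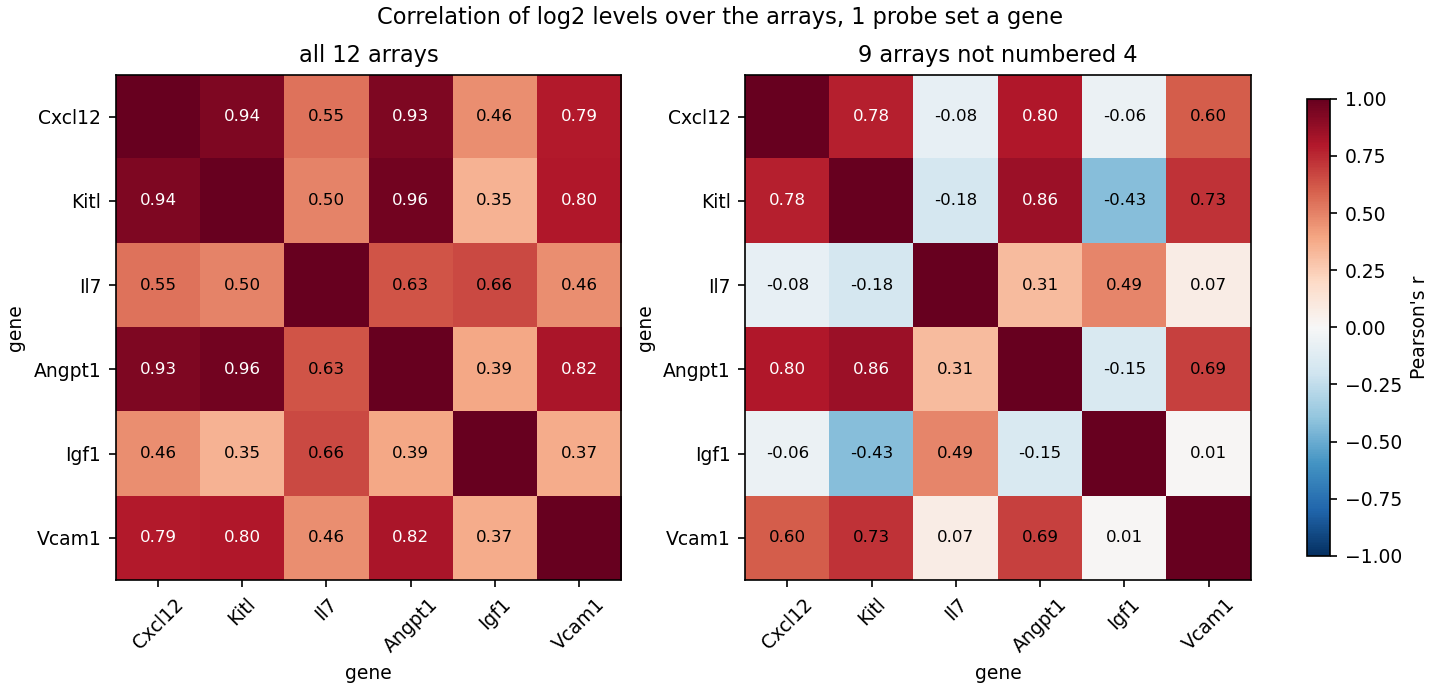
Pearson r between the log2 levels of the leading probe sets of the 6 members, over all 12 arrays and over the 9 arrays not numbered 4. Cxcl12, Kitl, Angpt1 and Vcam1 keep values of 0.604 or more with each other over both sets of arrays, and Igf1 and Il7 have lower values with them over the same arrays.

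The genes whose levels were most like a member's over the 12 arrays were found among 1973 other genes by Pearson r, given as a description. Most like Cxcl12 were Kng1 (kininogen, r = 0.985), Fbln5 (fibulin of elastic fibres, r = 0.978) and Ebf3 (a transcription factor of marrow reticular cells, r = 0.977). For Kitl they were Cdh11 (a mesenchymal cadherin, r = 0.963), Angpt1 (0.962) and Kng1 (0.960), and for Angpt1 they were Kitl (0.962), Gnai1 (a G protein subunit, r = 0.961) and Ghr (growth hormone receptor, r = 0.960). Kng1 and the Kitl and Angpt1 pair thus recurred in these sets. Il7 was closest to Ifi27l2a (an interferon-induced gene, r = 0.931), Ccl12 (a chemokine, r = 0.916) and Fnip1 (a folliculin partner, r = 0.911). Igf1 was closest to Rnf13 (0.940), Tmsb4x (an actin-binding thymosin, r = 0.936) and Mrps36 (0.934), and Vcam1 to Cd86 (a costimulatory surface protein, r = 0.940), Enpep (aminopeptidase A, r = 0.937) and Bmp6 (a bone morphogenetic protein, r = 0.921).

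Genes of the same pathways were counted from 4 lists, each gene by its brightest probe set. Beside these counts, 6.18% of all probe sets were called for Crebbp+/- minus wild type and 6.4% for Crebbp+/- minus Ep300+/-. With the block these shares were 26.1% and 24.4%. Of 13 receptors and binding partners of the members, 4 were measured (Cxcr4, Kit, Tie1 and Igf2r). Tie1, an endothelial receptor that works with Tek, was 2.32 higher on the log2 scale in Crebbp+/- than in wild type (SE 0.62, adjusted p = 0.0431) and 2.92 higher than in Ep300+/- (SE 0.62, adjusted p = 0.021). It was the 1 of 4 that passed in each of these comparisons, and the list medians were 0.77 and 0.57. Tie1 averaged 8.02 in Crebbp+/-, but 5.70 in wild type and 5.10 in Ep300+/-, under the table's bound of 6.64. Its higher level in Crebbp+/- may thus in part be a condition of its being in the table. Whether it met the bound through Crebbp+/- arrays alone was not tested. In Ep300+/- minus wild type 0 of 4 passed, where Cxcr4 was at 0.42, Tie1 at -0.60 and Igf2r at -0.03 (adjusted p of 0.9645 or more), with a median of -0.02. With the block 2 rose and 1 fell in both Crebbp+/- comparisons.

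Of 19 modulators, which are rival ligands, binding proteins and proteases of the members, 12 were measured. Igfbp6, a binding protein that prefers Igf2, was 2.43 lower in Crebbp+/- than in wild type (log2 difference -2.43, SE 0.62, adjusted p = 0.0359) and was also lower than in Ep300+/- (-2.29, SE 0.62, adjusted p = 0.0429), and it was the 1 of 12 called in each. The list medians were 0.57 against wild type and 0.58 against Ep300+/-, opposite in sign to Igfbp6. In Ep300+/- minus wild type 0 of 12 passed, and the smallest p-values were those of Igfbp4 (-0.56), Angpt4 (-0.35) and Igfbp2 (0.75), with a median of -0.14. With the block 2 rose and 1 fell for Crebbp+/- minus wild type, where 26.1% of all probe sets were called. For Crebbp+/- minus Ep300+/- 6 rose and 1 fell, where 24.4% of all were called.

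Of 31 other niche factors, 7 were measured, and Angptl4, a secreted inhibitor of lipoprotein lipase, was the 1 that passed for Crebbp+/- minus wild type (1.14, SE 0.31, adjusted p = 0.0442, list median 0.50). For Crebbp+/- minus Ep300+/- 0 of 7 passed, with Angptl4 at 1.05 (adjusted p = 0.0602), the Notch ligand Jag1 at 0.60 (adjusted p = 0.168) and the growth factor Ereg at -0.76 (adjusted p = 0.202), and a list median of -0.07. For Ep300+/- minus wild type 0 of 7 passed, with Ereg at 0.76, the cytokines Osm at 1.06 and Il6 at 1.14 (adjusted p of 0.965 each), and a list median of 0.39. The block gave 1 higher against wild type and 2 higher against Ep300+/-.

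Of 12 other adhesion partners of blood cells, the molecules most like Vcam1 in role, 7 were measured. Selp, or P-selectin, exceeded its wild-type level in Crebbp+/- by 1.54 (SE 0.35, adjusted p = 0.0251), and Mcam, a melanoma cell adhesion molecule of vessels and perivascular cells, by 1.64 (SE 0.37, adjusted p = 0.0261). Mcam was also higher than in Ep300+/- by 1.56 (SE 0.37, adjusted p = 0.0301), as was Icam2, an endothelial integrin ligand, by 2.92 (SE 0.67, adjusted p = 0.0253). These made 2 of 7 in each Crebbp+/- comparison, with list medians of 1.05 and 0.46, and 3 rose and 1 fell in each with the block. Icam2 averaged 7.36 in Crebbp+/-, but 4.94 in wild type and 4.44 in Ep300+/-, under the table's bound of 6.64. As for Tie1, its higher level in Crebbp+/- may in part be a condition of its being in the table, which was not tested. For Ep300+/- minus wild type 0 of 7 passed, with Icam1 at 1.51, Fn1 at -0.31 and Selp at 0.29, and a median of 0.00.

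Calls of the list genes depended on single arrays. With each of the 12 arrays left out in turn, the Crebbp+/- minus wild type calls passed in 4 fits for Tie1, 5 for Igfbp6, 3 for Angptl4, 6 for Selp and 6 for Mcam. The direction was kept in all 12, though leaving out an array of the genotype not compared cannot change a difference. The Crebbp+/- minus Ep300+/- calls passed in 8 fits for Tie1, 3 for Igfbp6, 6 for Icam2 and 7 for Mcam. Leaving out Crebbp+/- array 1 or 2 ended each of these calls. With the level of Eif2s3y as a covariate none of them passed (adjusted p from 0.242 to 0.448). That level was low on Crebbp+/- arrays alone, so the covariate can take up part of the genotype difference. Each difference kept its direction, such as Icam2 at 2.32, Mcam at 1.20 and Tie1 at 2.18 for Crebbp+/- minus Ep300+/-.

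**Figure D5:**
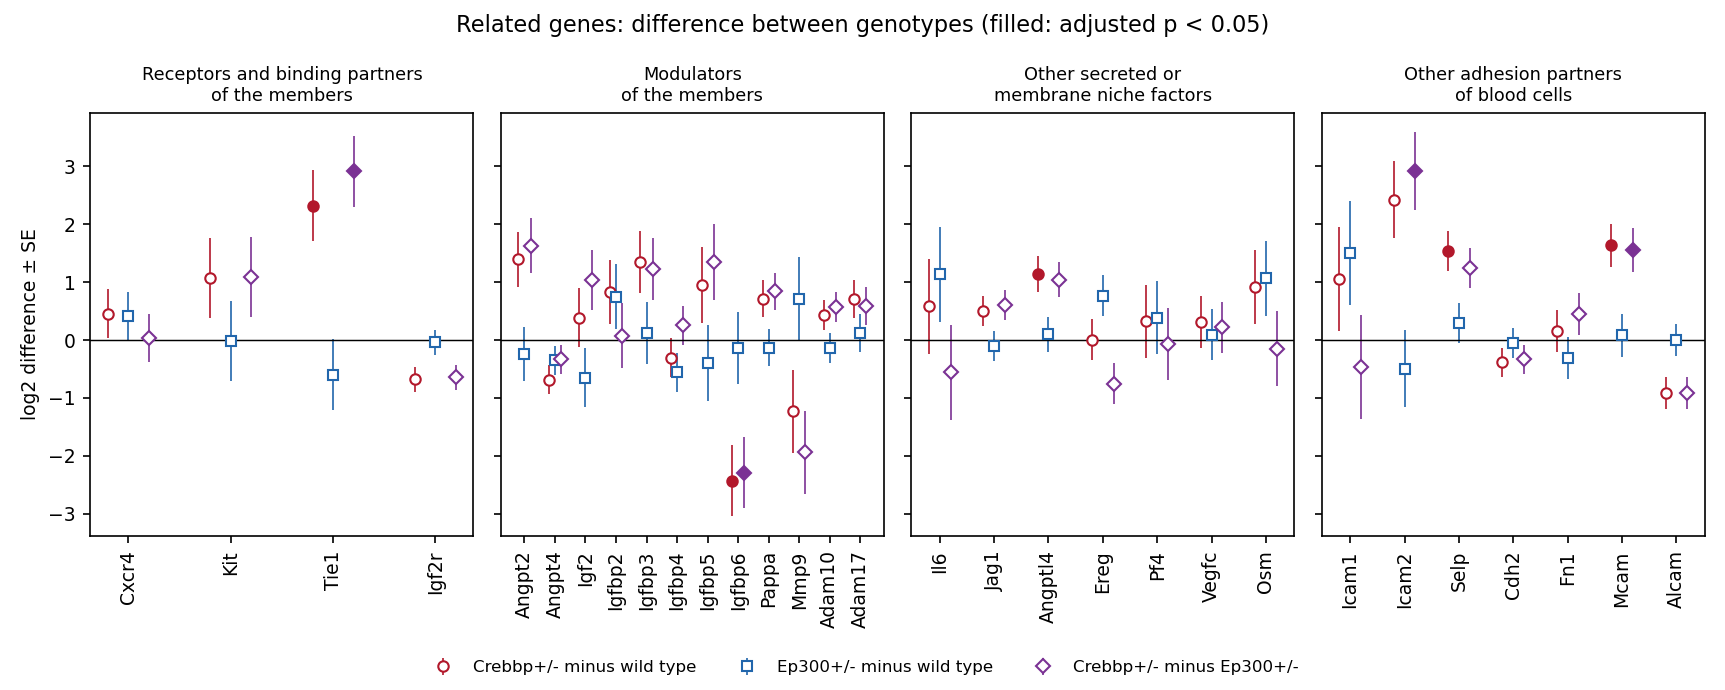
Log2 difference between genotypes with its SE (vertical axis) for the measured genes of the 4 lists, for Crebbp+/- minus wild type (circles), Ep300+/- minus wild type (squares) and Crebbp+/- minus Ep300+/- (diamonds), filled where the adjusted p is under 0.05. Filled points are Tie1, Igfbp6, Angptl4, Selp, Icam2 and Mcam, none of them for Ep300+/- minus wild type.

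Markers of the cells known to make these factors were present. Of 13 reticular and mesenchymal markers 7 were measured (Lepr, Foxc1, Ebf3, Prrx1, Col1a2, Col3a1 and Dcn), and 0 passed in any comparison without the block. With it, Col1a2 was called lower against wild type (-1.42, adjusted p = 0.0346), and Foxc1 (0.76, adjusted p = 0.0295), Ebf3 (0.99, adjusted p = 0.014) and Col3a1 (1.15, adjusted p = 0.0292) were called higher against Ep300+/-. The Col1a2 probe set was dim, with means of 5.53 in Crebbp+/- and 5.89 in Ep300+/-, under the table's bound of 6.64, and 6.94 in wild type. Its higher level in wild type may in part be a condition of its being measured, which was not tested. The median difference of the 7 markers was 0.52 for Crebbp+/- minus wild type, -0.43 for Ep300+/- minus wild type and 0.76 for Crebbp+/- minus Ep300+/-, the same signs as the member medians. The summed linear level of the 7 ran from 5295 to 7826 in Crebbp+/-, 2001 to 6273 in Ep300+/- and 3388 to 6260 in wild type, and array 4 was the lowest of each genotype. Their part in the member levels was not tested. In bulk RNA of this kind, fewer cells of a type and less RNA per cell cannot be told apart.

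Other cell type markers moved with Crebbp+/-. Of 14 endothelial markers 12 were measured, of which 7 were higher in Crebbp+/- than in wild type and 12 higher than in Ep300+/-, while 0 passed for Ep300+/- minus wild type. With the block 12 were higher in both Crebbp+/- comparisons. Their summed linear level ran from 6737 to 17523 in Crebbp+/-, 3055 to 4170 in Ep300+/- and 3972 to 5991 in wild type, with Crebbp+/- array 4 the lowest of its genotype. The list includes Tie1 and Icam2. Tie1, Icam2, Kdr and Cldn5 had means of 7.20 to 8.48 in Crebbp+/-. Their means in the other genotypes were 4.44 to 6.01, under the table's bound of 6.64. Robo4 was under it in Ep300+/- (6.20), and the other measured markers had means above it in every genotype. For those under it, a higher level in Crebbp+/- may in part be a condition of being measured, which was not tested. Of 5 smooth muscle and pericyte markers 2 were measured, and Rgs5 passed for Crebbp+/- minus wild type (2.57) and for Crebbp+/- minus Ep300+/- (2.44), and Myh11 for the second of these (1.12). The summed level of those 2 ran from 3449 to 11999 in Crebbp+/-, 587 to 2512 in Ep300+/- and 933 to 3620 in wild type. By its mean log2 levels of 13.01, 10.58 and 10.44 in the same order, Rgs5 makes up nearly all of these sums. Myh11 averaged 7.41, 6.28 and 6.56, under the bound of 6.64 outside Crebbp+/-, so the limit given for Tie1 and Icam2 may hold for it. The part of endothelial, smooth muscle and pericyte cells in the Kitl, Angpt1 and Vcam1 differences was not tested.

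Among 11 macrophage markers 4 were measured, and Cd163 passed for Crebbp+/- minus wild type (1.18, adjusted p = 0.0228). Their summed level ran from 23700 to 34952 in Crebbp+/-, 19029 to 37043 in Ep300+/- and 12936 to 18302 in wild type. By its mean log2 levels of 14.27, 13.92 and 13.08 in the same order, Cd163 weighs most in these sums. Crebbp+/- minus wild type was positive for 3 of 4 and Crebbp+/- minus Ep300+/- for 2 of 4. Vsig4 was negative in both, at -0.58 and -0.97, neither past the threshold. Of 7 osteoblast markers 3 were measured, and Ibsp was lower in Crebbp+/- than in wild type (-1.75) and than in Ep300+/- (-1.67), with summed levels of 1277 to 2492 in Crebbp+/-, 2801 to 6651 in Ep300+/- and 3808 to 7727 in wild type. By its mean log2 levels of 10.23, 11.90 and 11.98 in the same order, Ibsp weighs most in the osteoblast sums. Of 8 adipocyte markers 5 were measured, and Cd36 was lower in Crebbp+/- than in wild type (-0.97). The adipocyte list was mixed in that comparison, with 3 of 5 positive and a median of 0.21. Without Crebbp+/- array 1 none of these marker calls in either Crebbp+/- comparison passed, and each kept its direction. With the block, 2 macrophage markers were higher, and 2 osteoblast markers and 1 adipocyte marker lower, for Crebbp+/- minus wild type. For Crebbp+/- minus Ep300+/- it called 1 macrophage marker higher and 1 lower, and 1 osteoblast marker lower. No marker of lymphoid and erythroid cells (0 of 9) or of granulocytes (0 of 6) was among the probe sets analysed here.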

How the data were processed

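The 12 Affymetrix arrays, 4 per genotype, were analysed from the table that the authors deposited, whose values are log2 levels. Per the submitters' processing notes these come from GCRMA, which adjusts background by probe sequence, normalizes between arrays and summarizes each probe set, so levels of different probe sets cannot be compared. No source used here gives its version or chip definition. The table held 3127 probe sets, and 18 controls were left out. Every probe set had an interquartile range of at least 0.50 and reached 6.64 on 3 or more arrays, a filter read from the values, so members with flat levels could have been lost, and a dim one could enter through 1 genotype alone. List genes and markers went through the same filter, and for them the arrays at the bound were not counted by genotype. The platform annotation gave 1 symbol to 2486 of the 3109 probe sets tested, several to 176 and none to 447.

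Differences were fitted by lmFit and eBayes (limma 3.58.1, R 4.3.3) on the 12 arrays together, with 1 mean for each genotype, no covariate and two-sided Benjamini-Hochberg adjustment over the 3109 probe sets. The number of arrays limits the precision, and p-values measure the spread between arrays labelled as biological replicates. Correlations and their permutation tests used scipy 1.17.1 in Python 3.11.15. The fit without block or covariate was tested on simulated arrays whose noise was independent between arrays. That test does not cover deviations shared by arrays of a replicate number, or the block and covariate fits.

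Replicate numbers recur in the 3 genotypes. Arrays of one number deviated together from their genotype means: in Crebbp+/- and wild type the 4 pairs had r of 0.448 or more, and in Crebbp+/- and Ep300+/- of 0.294 or more, so in these comparisons the numbers were taken as pairs. In Ep300+/- and wild type 1 pair was at 0.059, and the numbers were not read as pairs there. The block was still fitted to the arrays of all 3 genotypes together, with a shared effect for each number. Block results for the Crebbp+/- comparisons thus also assume that Ep300+/- and wild-type arrays of a number share that effect. The value of 0.059 shows that this held poorly for 1 number. The choice was made from correlations in the same data.

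The members and gene lists were chosen with earlier results of these data known. Named were the members, the 3 genes most like each, and from each list the called genes or, with none, up to 3 of smallest p. Called cell type markers and the 2 added alternatives were chosen after values were seen. The alternatives were quantile normalization, median centring, a filter keeping probe sets with 4 arrays at 6 or more, eBayes with trend and robust, fits of 2 genotypes, the replicate block, Eif2s3y as covariate, averaging the probe sets of a gene and leaving out arrays.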

Additional observations from a re-analysis of the deposited data

Results flagged for a closer look

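Among the 33 sets of 4 arrays formed by a member probe set and a genotype, 4 held an array far from the other 3, with a gap to the nearest that exceeded Dixon's critical value for 4 values, where chance gives about 1 set in 20. All 4 were arrays numbered 4 and all were low. In Crebbp+/-, Cxcl12 1448823_at was at 13.96 on array 4, against 14.85 to 14.92 on the other 3 arrays, and Angpt1 1439066_at was at 8.06, against 9.43 to 9.57. In Ep300+/-, Angpt1 1421441_at was at 3.75 on array 4, against 5.91 to 6.24 on the others, and Igf1 1452014_a_at was at 10.40, against 11.26 to 11.35.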

How the results depend on the processing

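Of 744 member differences recomputed over 23 settings, 680 kept their direction and their side of the threshold, 11 passed the threshold and 53 turned in direction. The turned ones belonged to 16 of the 33 differences, none of them above 0.35 in size. The cause of the turns was not tested.

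With the replicate block the members called numbered 2 for Crebbp+/- minus wild type and 3 for Crebbp+/- minus Ep300+/-, and with the block and quantile normalization together they again numbered 2 and 3, though in the second count Vcam1 1451314_a_at stood in the place of Cxcl12 1417574_at. The numbers were not read as pairs for Ep300+/- minus wild type, though the same block fit covers it. There the block called 0 members and 1 of all probe sets (0.0322%). Over all probe sets it called 812 for Crebbp+/- minus wild type, against 192 without it, and 760 for Crebbp+/- minus Ep300+/-, against 199. The block with quantile normalization called 743, 1 and 575 in the order Crebbp+/- minus wild type, Ep300+/- minus wild type and Crebbp+/- minus Ep300+/-. With Eif2s3y as a covariate 0 were called in both Crebbp+/- comparisons, a fit of 2 genotypes called 51 for Crebbp+/- minus Ep300+/-, and leaving out Crebbp+/- 3 and Ep300+/- 3 called 122 there.

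For Crebbp+/- minus wild type, quantile normalization, with or without the block, gave -0.07 for both Cxcl12 probe sets (-0.0732 and -0.0687), -0.32 for Kitl 1415855_at and -0.11 for Igf1, and median centring gave -0.18 for Kitl 1415855_at and -0.0329 for Igf1. The Eif2s3y covariate gave -0.33 for Kitl 1415855_at, -0.02 for Kitl 1448117_at (-0.0238) and -0.0166 for Angpt1 1439066_at, and leaving out Crebbp+/- 3 and Ep300+/- 3 gave -0.16 for Kitl 1415855_at. For Ep300+/- minus wild type, Igf1 was -0.16 after quantile normalization, with or without the block, -0.0209 after median centring and -0.0236 without Crebbp+/- 3 and Ep300+/- 3, which also gave -0.0828 for Kitl 1426152_a_at. Without the 3 arrays numbered 4, Angpt1 1439066_at was 0.13 and 1421441_at 0.0216. For Crebbp+/- minus Ep300+/-, Igf1 was -0.012 after median centring and -0.0141 without the arrays numbered 4, and Il7 was 0.0125 with the covariate and 0.13 without Crebbp+/- 3 and Ep300+/- 3.

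With 1 array left out at a time, 0 members were called for Crebbp+/- minus wild type and Ep300+/- minus wild type, and 0 to 1 for Crebbp+/- minus Ep300+/-, the 1 being Angpt1 1421441_at without Crebbp+/- array 4. All calls ranged from 5 (without wild-type array 4) to 383 (without Crebbp+/- array 4) for Crebbp+/- minus wild type, from 0 to 1 for Ep300+/- minus wild type and from 2 (without Ep300+/- array 1) to 374 (without Crebbp+/- array 4) for Crebbp+/- minus Ep300+/-. The differences that turned ranged, for Crebbp+/- minus wild type, from -0.16 to 0.35 (Kitl 1415855_at) and -0.11 to 0.39 (Igf1). For Ep300+/- minus wild type they ranged from -0.56 to 0.33 (Angpt1 1421441_at), -0.37 to 0.25 (Angpt1 1439066_at), -0.24 to 0.26 (Igf1), -0.53 to 0.0448 (Kitl 1415855_at), -0.46 to 0.65 (Kitl 1426152_a_at), -0.50 to 0.0547 (Vcam1 1415989_at) and -0.47 to 0.11 (Vcam1 1451314_a_at). For Crebbp+/- minus Ep300+/- they ranged from -0.10 to 0.22 (Igf1), -0.26 to 0.0669 (Il7) and -0.0228 to 0.64 (Kitl 1415855_at).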
